A study of Brassica rapa with 12 samples.

Results

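Of the 47249 genes listed for Brassica rapa (Chinese cabbage), 30 were silent or nearly so in plants kept at 22 °C and clearly read after 1 h at 37 °C, in both genotypes studied. They were chosen by their level alone. A gene had to lie under 1 CPM (reads of a gene per 1000000 gene counts, with edgeR's TMM scaling) in each of the 6 libraries at 22 °C. It also had to reach at least 20 CPM in each of the 6 libraries at 37 °C. The heat levels of the 30 genes, and their rise, are therefore given as a description and not as a finding.

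Polyadenylated RNA was sequenced from whole plants, 2 weeks old, of wild-type Chinese cabbage (cultivar Chiifu) and of gi, a GIGANTEA-edited Chinese cabbage listed under the same cultivar. Flowering is recorded as early for the wild type and late for gi. Each genotype was either left at 22 °C without heat treatment or held at 37 °C for 1 h, and each of the 4 groups had 3 libraries. The plants grew on 1/2MS medium only. The edit, the number of edited lines and the number of plants behind each library are not stated in the labels. P-values therefore describe how far these libraries spread, and that spread may be technical. In whole plants, fewer cells using a gene and less RNA per cell cannot be told apart.

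Plants answer a sudden rise in temperature within minutes. Heat shock transcription factors, held inactive at normal temperature, bind heat shock elements in promoters and switch on genes for molecular chaperones, which keep other proteins folded. Many of these genes, above all those for small heat shock proteins, are known to be almost unread without heat. GIGANTEA is a clock protein that also acts in flowering by day length. The gene IDs could not be paired with names: 0 of the 47249 IDs and 0 of the 30 matched the RefSeq gene table of the assembly CAAS_Brap_v3.01. No name, function, coordinate or sequence is therefore given for any of the 30 genes, and whether they encode chaperones was not analysed here. GIGANTEA itself could not be looked up either, so the genotypes rest on the labels.

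The libraries held 36778289 to 57777477 gene counts each. In the 6 libraries at 22 °C, 1 count was worth 0.0126 to 0.0177 CPM, so the limit of 1 CPM lay far above the smallest level that could be counted. TMM factors were lower at 37 °C (0.665 to 0.910) than at 22 °C (1.20 to 1.52), which raises CPM at 37 °C relative to plain total counts. With plain total counts the same limits were met by 20 genes, all of them among the 30. Factors above 1 at 22 °C and below 1 at 37 °C fix that no other gene could be added.

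The 30 genes took a trace of the reads at 22 °C and 1.65% to 2.03% of them at 37 °C. Their summed share of the gene counts was 0.00101% ± 0.000414 (SD, n = 3) in wild type and 0.000889% ± 0.000216 in gi at 22 °C. At 37 °C the share was 1.87% ± 0.170 in wild type and 1.79% ± 0.143 in gi. By single library, the share at 37 °C was 1.70%, 1.88% and 2.03% in wild type and 1.94%, 1.77% and 1.65% in gi. The libraries of the genotypes overlapped at both temperatures. Of the 30 genes, 5 to 7 were among the 100 most counted genes of each heated library, and 0 in each library at 22 °C.

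**Figure D1:**
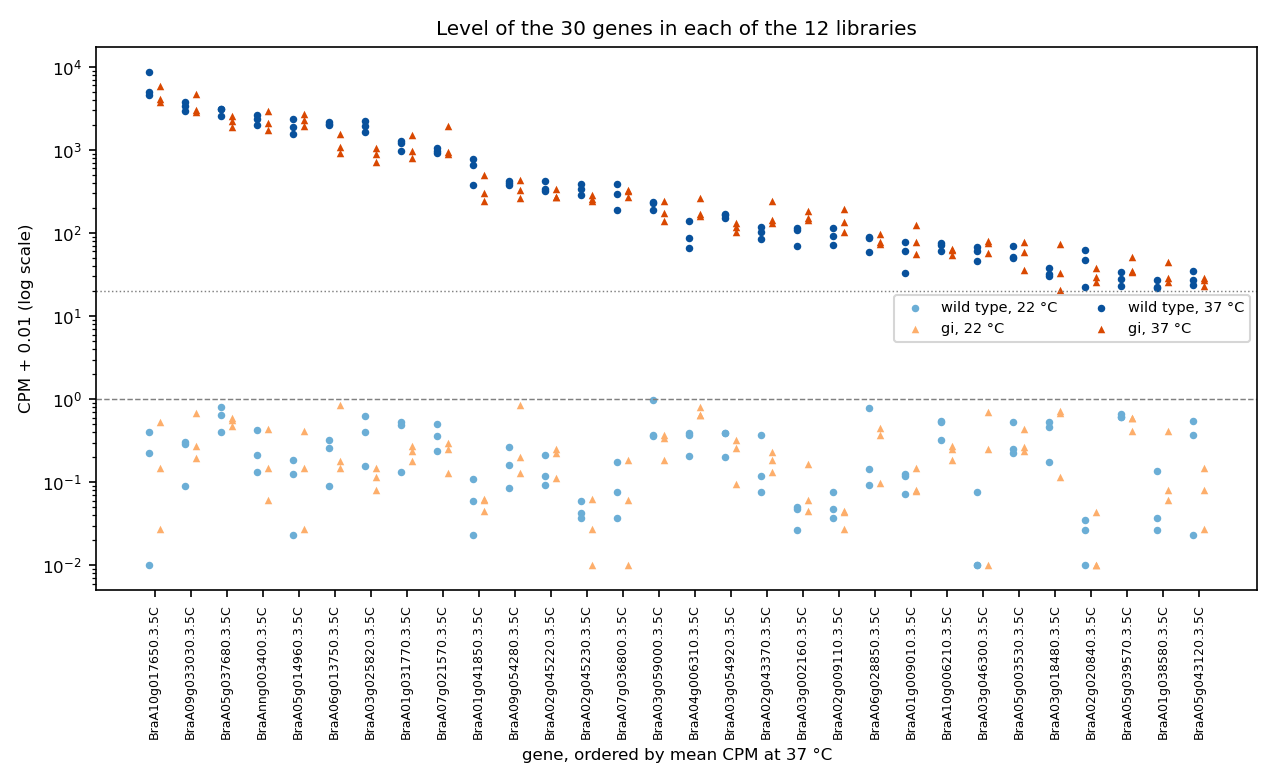
Level of each of the 30 genes in the 12 libraries, as CPM plus 0.01 on a log axis, so that a value of 0 counts sits at the lowest line of points. Circles are wild type and triangles gi, light colours are 22 °C and dark colours 37 °C; the dashed line is 1 CPM and the dotted line 20 CPM. The genes run from a mean of 5333 CPM down to 27.4 CPM at 37 °C, while their levels at 22 °C show no such slope.

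The reads were spread unevenly over the 30 genes. Averaged over the 6 libraries at 37 °C, 9 genes reached 1000 CPM, 11 had 100 to 1000 CPM and 10 had less than 100 CPM. The 9 leading genes held 85.7% to 88.5% of the counts of the 30 in each heated library. At 22 °C the same 9 genes held 24.2% to 48.0% of the few counts there were. CPM is not corrected for gene length, which the files do not give, so this order is one of reads and not of transcript number.

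The gene with the most reads was BraA10g017650.3.5C, on chromosome A10 by its ID. At 22 °C it had 0.398, 0 and 0.214 CPM in wild type against 0.514, 0.0171 and 0.140 CPM in gi. At 37 °C it had 4528, 4937 and 8753 CPM in wild type and, in gi, 5914, 4053 and 3812 CPM. Wild type replicate 3 stood above the other heated libraries, and the genotypes overlapped. The ratio of the mean at 37 °C to that at 22 °C was 29802 in wild type, with an exact 95% counting interval for the counts at 22 °C of 21968 to 41529. In gi it was 20534 (95% counting interval 14960 to 29016). These intervals cover counting error only, and the spread between the libraries at 22 °C was wider than that.

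BraA09g033030.3.5C, on A09, came next. It had 0.298, 0.0810 and 0.276 CPM in wild type against 0.674, 0.188 and 0.262 CPM in gi at 22 °C. At 37 °C its levels were 3740, 2915 and 3407 CPM in wild type and, in gi, 4743, 3044 and 2872 CPM. The heated genotypes overlapped here too.

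At the lower end, BraA05g043120.3.5C had 23.8, 27.3 and 34.7 CPM in wild type against 27.5, 28.4 and 22.7 CPM in gi at 37 °C. Its counts at 22 °C came mostly from wild type replicates 1 and 3, at 0.530 and 0.364 CPM, against 0.0135 to 0.140 CPM in the other libraries at 22 °C. BraA01g038580.3.5C had 22.2, 27.3 and 21.97 CPM in wild type and, in gi, 45.1, 28.8 and 25.9 CPM at 37 °C. Both lay only slightly above the limit of 20 CPM.

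All 30 genes were called raised by heat in each genotype by edgeR's quasi-likelihood test, where 18.2% of all genes tested were called raised in wild type and 16.2% in gi. The way the genes were chosen fixes this count. The median ratio of the means was 2701 in wild type (range 46.5 to 29802) and 1778 in gi (range 76.7 to 20534). A ratio of at least 1000 was reached by 18 genes in wild type and 17 in gi.

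The genes at the edges of the limits show how sharp the choice was. Nearest inside the limit at 22 °C were BraA03g059000.3.5C, with a highest value of 0.955 CPM, and BraA09g054280.3.5C, with 0.851 CPM. Nearest outside were BraA03g024830.3.5C at 1.01 CPM and BraA09g042100.3.5C at 1.10 CPM, the latter with at least 1187 CPM in every heated library. At the limit of 20 CPM, the lowest heated values inside were 20.5 CPM (BraA03g018480.3.5C) and 21.97 CPM (BraA01g038580.3.5C). Those nearest outside were 18.9 CPM (BraA04g027630.3.5C) and 18.5 CPM (BraA01g014160.3.5C).

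The passage from silence to a high level was rare among silent genes. At the limit of 20 CPM, 0 genes made the reverse passage within 1 h of heat. Whether RNA present before the heat could fall that far in 1 h was not tested. Of the 28846 genes tested, 3451 lay under 1 CPM in all 6 libraries at 22 °C, and the 30 genes are 0.869% of those. Another 2511 stayed under 1 CPM in all 6 heated libraries. With the limit at 37 °C set at 1, 5, 100 and 1000 CPM, the genes that passed in every heated library numbered 195, 66, 16 and 5. The reverse, under 1 CPM in all libraries at 37 °C and at or above the limit in all at 22 °C, held for 115 genes at 1 CPM, 1 at 5 CPM and 0 at 10 CPM or more. Under plain total counts the genes switched on numbered 117 at 1 CPM and 46 at 5 CPM, and the reverse held for 348 and 6. At the 1 CPM limit the larger group was therefore the one switched on with TMM and the reverse one with total counts. At 20 CPM the counts with total counts were 20 and 0.

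**Figure D2:**
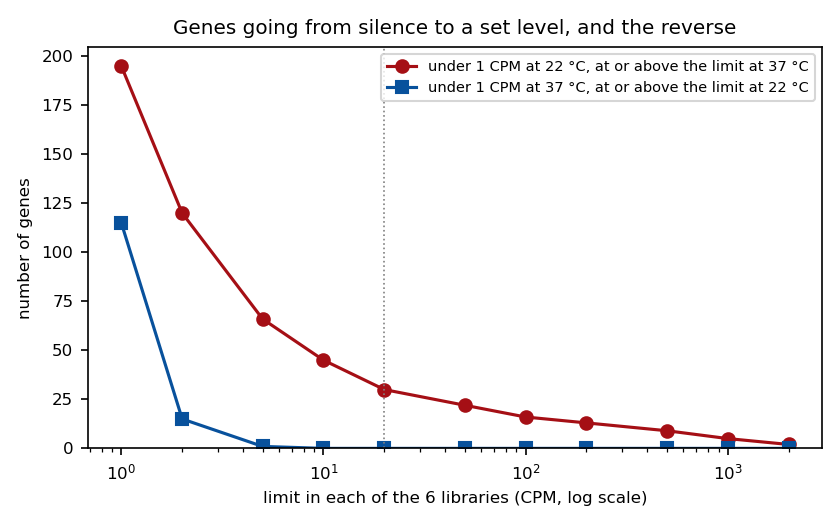
Number of tested genes (vertical axis) that were under 1 CPM in all 6 libraries at one temperature and at or above a limit in all 6 at the other, against that limit in CPM on a log axis. The red line, from 22 °C to 37 °C, falls from 195 genes at 1 CPM to 30 at 20 CPM (dotted line) and 2 at 2000 CPM; the blue line, the reverse, falls from 115 genes at 1 CPM to 0 at 10 CPM.

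Silence at 22 °C was seldom a true 0. Of the 180 values (30 genes in 6 libraries), 9 were 0 counts, 32 were 1 to 3 counts and 139 were higher, with a median of 10 counts and a maximum of 76. Counts were found in all 6 libraries for 25 genes. The genes had 5 to 223 counts over the 6 libraries, with a median of 92.5. Under 0.5 CPM in every library lay 14 genes, and under 0.1 CPM lay 4.

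The genes with the most counts at 22 °C differed widely in how far they rose. BraA05g037680.3.5C had 0.630, 0.391 and 0.804 CPM in wild type against 0.585, 0.547 and 0.471 CPM in gi at 22 °C. At 37 °C it had 3069, 2583 and 3080 CPM in wild type and, in gi, 2539, 2250 and 1911 CPM, where all 3 gi libraries lay below the wild type. BraA05g039570.3.5C started from a like level, 0.646, 0.594 and 0.603 CPM in wild type against 0.585, 0.582 and 0.401 CPM in gi. It reached 34.3, 28.3 and 23.2 CPM in wild type and, in gi, 51.9, 34.9 and 33.5 CPM. The ratio of means in wild type was 4784 for the first gene and 46.5 for the second.

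BraA02g020840.3.5C had the fewest counts at 22 °C, 3 in wild type and 2 in gi over 3 libraries each. At 37 °C it had 63.1, 46.8 and 22.7 CPM in wild type against 38.1, 25.8 and 29.6 CPM in gi. The ratio of means was 3179 in wild type (95% counting interval 1088 to 15413) and 2733 in gi (757 to 22568).

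The trace at 22 °C differed between libraries, and the genotypes overlapped. Summed over the 30 genes it was 7.08, 4.90 and 9.70 CPM in wild type and, in gi, 9.42, 5.87 and 6.19 CPM. Most genes had their highest value at 22 °C in gi replicate 1 (10 genes) or in wild type replicate 3 (9 genes), and 0 had it in wild type replicate 2. The median of the 30 genes ran from 0.108 to 0.264 CPM over the libraries at 22 °C. In a comparison set of 378 genes, read at a far higher level, the median was 8.76 to 10.02 CPM, with less relative spread. This set held genes with at least 1 CPM in every library at 22 °C and at least 20 CPM in every library at 37 °C, with a mean raised at least 8-fold in both genotypes.

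Between gi and wild type at 22 °C, edgeR called 0 of the 30 genes in either direction, where 0.451% of all genes tested were called higher and 0.562% lower in gi. At such shares, 0 of 30 is near the background. The unadjusted p was under 0.05 for 5 genes, against 15.1% of all genes. DESeq2 called 0 higher and 2 lower, where it called 5.46% of all genes in either direction. Those 2, named after their values were seen, were BraA03g025820.3.5C and BraA10g006210.3.5C. BraA10g006210.3.5C had 0.315, 0.526 and 0.540 CPM in wild type against 0.266, 0.239 and 0.174 CPM in gi at 22 °C, with no overlap. By edgeR it had a log2 difference of -1.03 (adjusted p = 0.0881). Without wild type at 22 °C replicate 1 its adjusted p by edgeR was 0.0147. BraA03g025820.3.5C had 0.398, 0.148 and 0.616 CPM in wild type and, in gi, 0.106, 0.137 and 0.0698 CPM, again with no overlap. Its log2 difference was -1.87 (edgeR adjusted p = 0.129), and without wild type at 22 °C replicate 2 the adjusted p was 0.0335. BraA03g046300.3.5C had 0.692, 0.239 and 0 CPM in gi and 0.0663, 0 and 0 CPM in wild type. It passed as higher in gi when gi at 22 °C replicate 3 was left out (edgeR adjusted p = 0.0406), against 0.188 with all libraries.

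After heat, none of the 30 genes passed edgeR's test between the genotypes. For gi against wild type it called 0 of them higher and 0 lower at 37 °C, where 1.29% of all genes tested were called higher and 1.40% lower. Here too 0 of 30 is near the background. The same limits held for both genotypes, so the genes were not chosen for a difference, but a gene under 20 CPM in either genotype could not be among them. The log2 differences ran from -1.13 to 1.01, with 15 above and 15 below 0 and a median of -0.01, against -0.02 for all genes tested. Their standard errors were 0.19 to 0.80 with a median of 0.39. For 9 genes the difference with 2 SE either way lay within 1 on the log2 scale, so that a 2-fold difference was outside that range. For the other 21 a 2-fold difference lay within that range.

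**Figure D3:**
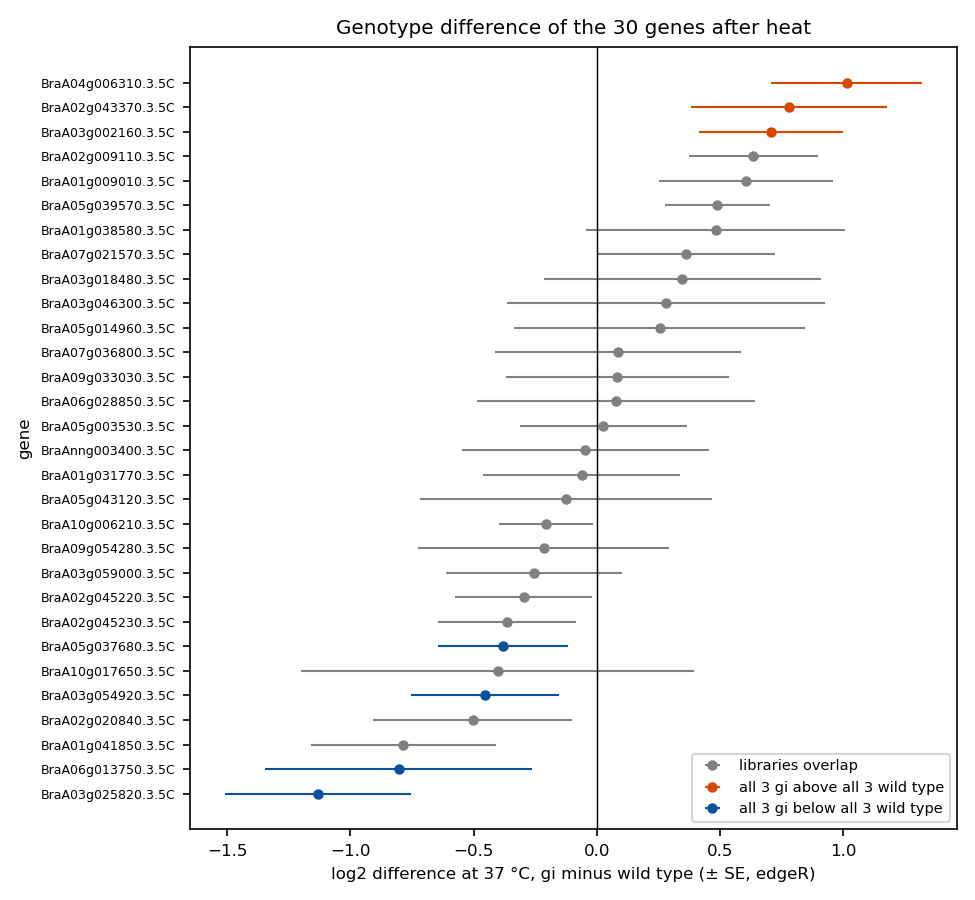
Log2 difference between gi and wild type at 37 °C for each of the 30 genes, with its standard error from edgeR (3 libraries per group). The values run from -1.13 to 1.01 around a median of -0.01; 3 genes had all gi libraries above all wild-type libraries and 4 had them all below.

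The libraries of the 2 genotypes did not overlap at 37 °C for 7 of the 30 genes, 3 higher and 4 lower in gi. Over all genes tested, 15.3% failed to overlap with gi higher and 15.3% with gi lower, so the share among the 30 was near the background. A log2 difference beyond 1 either way was found for 2 genes, against 16.9% of all genes. The unadjusted p was under 0.05 for 5 genes, against 20.4% of all genes. DESeq2 called 1 gene higher and 1 lower, where it called 10.5% of all genes in either direction. All genes tested include many read at a low level, and 8813 of them averaged 20 CPM or more at 37 °C, as the 30 do. In the comparison set of 378 genes edgeR called 1 higher and 6 lower, and the median log2 difference was -0.21. There 23 genes had a log2 difference beyond 1 and 65 an unadjusted p under 0.05 (edgeR). The libraries did not overlap for 22 with gi higher and 67 with gi lower. These shares were near those among the 30, so they are not particular to the 30.

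The genes called by DESeq2, named after their values were seen, were BraA03g025820.3.5C and BraA04g006310.3.5C. BraA03g025820.3.5C had 1638, 2233 and 1963 CPM in wild type against 1058, 897 and 709 CPM in gi at 37 °C. All gi libraries lay below all wild-type libraries. Its log2 difference was -1.13 (SE 0.38, edgeR adjusted p = 0.128), and the adjusted p ran from 0.0254 (DESeq2) to 0.351 over 19 alternatives. A fit of the heated groups alone gave 0.0430 (edgeR).

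BraA04g006310.3.5C had 88.2, 65.3 and 140 CPM in wild type and, in gi, 261, 172 and 160 CPM at 37 °C, with no overlap. Its log2 difference was 1.01 (SE 0.31, edgeR adjusted p = 0.0997). Over 19 alternatives the adjusted p ran from 0.0221 (DESeq2) to 0.260, and it was 0.0492 (edgeR) when wild type at 22 °C replicate 1 was left out. At 22 °C the gene had 0.199, 0.378 and 0.364 CPM in wild type against 0.639, 0.804 and 0.628 CPM in gi, again with no overlap (edgeR adjusted p = 0.190).

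The size of the heat response was not detectably different between genotypes for any of the 30 genes. The interaction of heat and genotype called 0 of them in either direction, where 0.0693% of all genes tested were called with a higher and 0.0485% with a lower response in gi. With shares that low, 0 of 30 genes is near the background and not particular to them. The unadjusted p was under 0.05 for 3 genes, against 10.2% of all genes, and DESeq2 called 0, against 1.96% of all genes. The interaction log2 values ran from -3.58 to 1.82, with a median SE of 0.70. That SE is wider than the 0.39 at 37 °C alone, and the few counts at 22 °C enter this comparison. The value of -3.58 belonged to BraA03g046300.3.5C, whose wild-type libraries held 4 counts in all at 22 °C (edgeR adjusted p = 0.440).

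For 10 further silent genes the limit of 20 CPM was met in all 3 heated gi libraries but not in all 3 of the wild type. The opposite held for 0 genes. Single wild-type libraries could still pass the limit. BraA01g010970.3.5C had 44.1 CPM in wild type replicate 3, above its highest gi value of 26.0 CPM. None of the 10 was called between genotypes at 37 °C or in the interaction (edgeR), so they are not shown to differ. The lowest wild-type value lay between 9.73 and 18.9 CPM for 8 of them. For the other 2, wild type replicate 3 stood apart. BraA07g005960.3.5C had 13.6, 16.95 and 0.0964 CPM in wild type and, in gi, 206, 94.8 and 78.0 CPM (edgeR adjusted p = 0.0868). BraA01g035300.3.5C had 15.3, 13.8 and 0.0964 CPM in wild type against 93.9, 35.5 and 22.4 CPM in gi (edgeR adjusted p = 0.247). In wild type replicate 3, 0.0964 CPM is 3 counts. These genes were chosen after their values were seen.

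In heated gi, with TMM scaling, most of the 30 genes were highest in the same library, as were most comparison genes. In gi replicate 1, 26 of the 30 had their highest value of the 3 gi libraries at 37 °C, and the median gene lay 0.39 above its group mean on the log2 scale. In gi replicates 2 and 3 the medians were -0.06 and -0.27. The 378 comparison genes gave 0.40, -0.12 and -0.28, and the 8813 genes averaging 20 CPM or more at 37 °C gave 0.18, -0.07 and -0.11. In heated wild type no library stood out for the 30 genes. There 12, 9 and 9 of them were highest in replicates 1, 2 and 3, with medians of 0.09, -0.01 and -0.07, while 245, 85 and 48 of the comparison genes were.

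**Figure D4:**
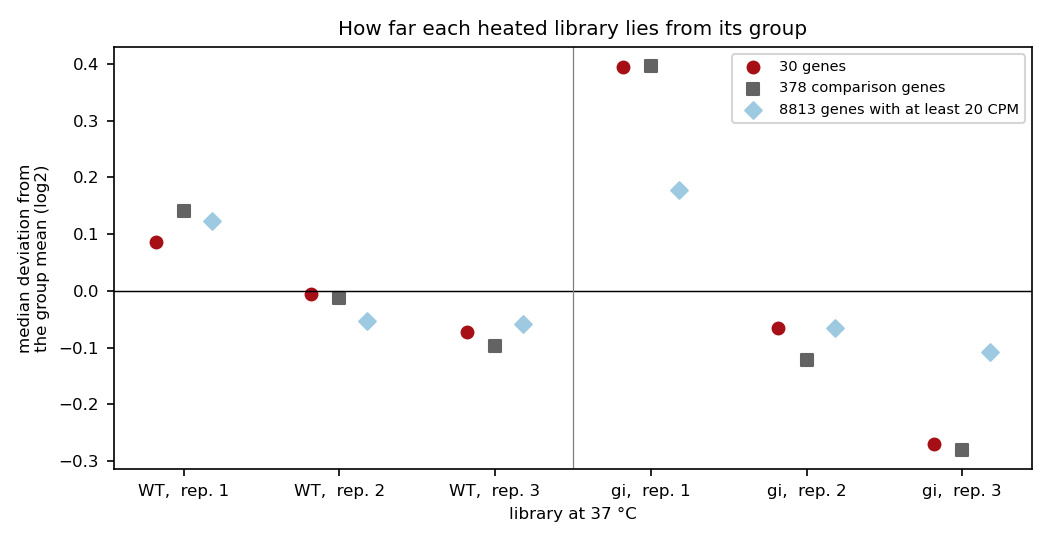
Median deviation of each heated library from its group mean, on a log2 scale of CPM plus 0.5, for the 30 genes (circles), the 378 comparison genes (squares) and the 8813 genes averaging 20 CPM or more at 37 °C (diamonds). In gi replicate 1 the circles and squares sit at 0.39 and 0.40, above the diamonds at 0.18; in wild type all medians lie between -0.10 and 0.14.

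The deviation of gi replicate 1 was smaller under another scaling. When plain totals replaced TMM, its median for the 30 genes was 0.13, and 17 of the 30 were highest there, which leaves 13 that were not. With plain totals the 378 comparison genes gave 0.13 and the 8813 genes averaging 20 CPM or more at 37 °C gave -0.08. Under both scalings the 30 genes lay above those 8813 genes in gi replicate 1. This library had the most counts in genes and a TMM factor of 0.673, against 0.864 and 0.910 in the other heated gi libraries. The part of depth and scaling in the deviation was not tested. Set against the comparison genes of the same library, the summed counts of the 30 varied little in gi, at 6.70%, 6.77% and 6.59% in replicates 1 to 3. In heated wild type they were 5.97%, 6.41% and 7.49%. There 1 gene weighed heavily on the sum. BraA10g017650.3.5C alone held 156091, 160778 and 272510 counts in replicates 1 to 3, of 878980, 804086 and 866411 counts for the 30 genes.

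With TMM scaling, the 4 genes that were not highest in gi replicate 1 were BraA07g036800.3.5C, BraA03g002160.3.5C, BraA05g043120.3.5C and BraA03g046300.3.5C, named after their values were seen. BraA03g046300.3.5C had 56.8, 74.9 and 81.0 CPM in gi replicates 1 to 3 and 61.2, 68.0 and 45.9 CPM in wild type.

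The coefficient of variation over the 6 heated libraries was under 25% for 15 genes, 25% to 40% for 8 and over 40% for 7. The steadiest genes were BraA10g006210.3.5C at 11.7% and BraA05g043120.3.5C at 15.4%. BraA10g006210.3.5C had 72.6, 61.5 and 74.9 CPM in wild type and, in gi, 65.0, 61.7 and 54.6 CPM. The most variable were BraA03g018480.3.5C at 48.7% and BraA04g006310.3.5C, described above, at 46.8%. BraA03g018480.3.5C had 37.5, 30.2 and 31.99 CPM in wild type against 73.5, 32.7 and 20.5 CPM in gi, so that gi alone held both its highest and its lowest value. Within wild type the median coefficient of variation of the 30 genes at 37 °C was 16.1%, beside 14.1% for the comparison genes. Within gi it was 25.5%, beside 26.0%.

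By their IDs, the 30 genes lay on 9 of the 10 chromosomes, with 1 gene not placed. There were 6 on A03, 5 each on A02 and A05, 4 on A01, 2 each on A06, A07, A09 and A10, 1 on A04 and 0 on A08. A03 holds 14.7% and A08 7.68% of the genes tested. Their IDs were mostly far apart. For 1 pair, BraA02g045220.3.5C and BraA02g045230.3.5C, the IDs were next to each other, and the next closest were 185 IDs apart. IDs were read as if numbered along the chromosome, and no genome was at hand to check it.

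The neighbouring A02 genes reached like levels at 37 °C, and the way the genes were chosen fixes that both rose. BraA02g045220.3.5C had 0.0829, 0.108 and 0.201 CPM in wild type and, in gi, 0.213, 0.103 and 0.244 CPM at 22 °C, and 341, 425 and 320 CPM in wild type against 342, 272 and 270 CPM in gi at 37 °C. BraA02g045230.3.5C had 0.0331, 0.0270 and 0.0503 CPM in wild type and, in gi, 0.0532, 0 and 0.0174 CPM at 22 °C. At 37 °C it had 340, 394 and 283 CPM in wild type against 290, 255 and 245 CPM in gi. In both genotypes the libraries ranked in the same order for the 2 genes at 37 °C. With gi replicate 1 highest for 26 of the 30 genes, such agreement in gi is not particular to this pair. At 22 °C the libraries ranked differently for the 2 genes in each genotype. If their sequences are near-identical, that could affect how many reads were counted for each, which was not analysed here.

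Genes directly beside the 30 by ID were also often raised by heat. This was measured on other genes than the 30, so the limits did not choose it. The filter on low counts could still be passed through heated libraries alone, as by BraA03g046290.3.5C, described below. Such genes could be tested only because they were read after heat. The same filter was used for all genes tested. Of the 58 places before and after the 29 placed genes, 2 were taken by the A02 pair itself and 17 held genes with too few counts to be tested. Of the 39 other genes, 17 (43.6%) were called raised in wild type, where 18.2% of all genes tested were. In gi 15 (38.5%) were called raised, against 16.2%. In both genotypes 14 were called raised (35.9%), against 12.7%, and they lay beside 13 of the 29 genes. In wild type 4 were called lowered (10.3%), against 16.5%.

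Farther away the share was lower. In wild type it was 31.7% of 41 tested genes at 2 IDs, 21.1% of 38 at 3 IDs, 26.8% of 41 at 4 IDs and 20.5% of 39 at 5 IDs. In gi the shares at 2 to 5 IDs were 26.8%, 23.7%, 24.4% and 17.9%. Beside the 378 comparison genes the shares at 1 ID were 29.2% in wild type and 23.3% in gi, and at 2 IDs 18.3% and 16.8%. The difference between the 2 sets was not tested. With total counts in place of TMM, 9 neighbours were called raised in wild type (23.1%), where 7.18% of all genes were, and 12 in gi (30.8%, against 8.74%).

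**Figure D5:**
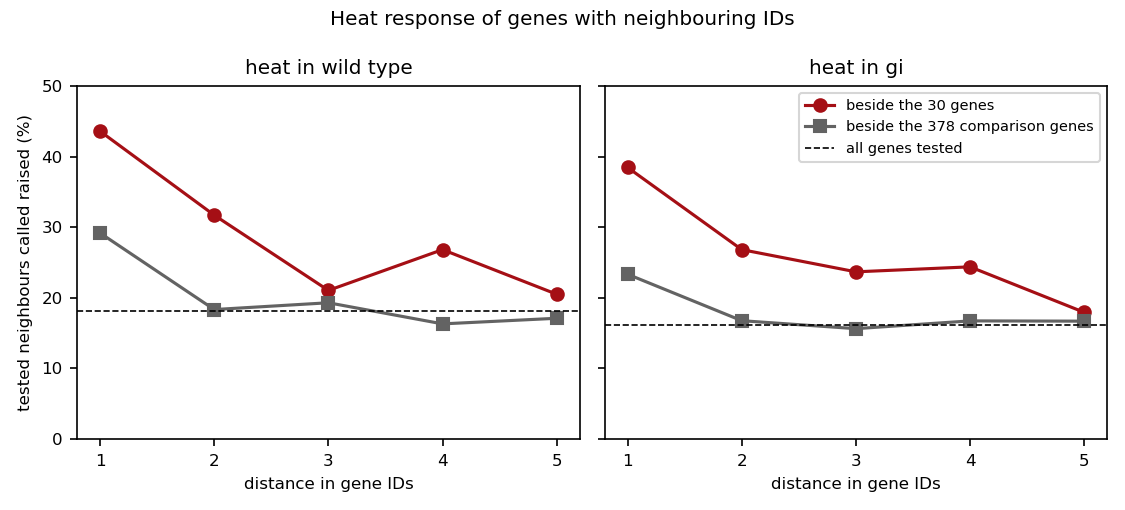
Share of tested genes called raised by heat (edgeR, adjusted p under 0.05) at 1 to 5 IDs from the 30 genes (red circles) and from the 378 comparison genes (grey squares), in wild type (left) and gi (right). The dashed line is the share among all genes tested, 18.2% in wild type and 16.2% in gi; beside the 30 genes the share is 43.6% and 38.5% at 1 ID and 20.5% and 17.9% at 5 IDs.

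Most of the rises beside the 30 genes were smaller than those of the 30 genes. Of the 17 in wild type, 3 were under 2-fold, 10 from 2-fold to 8-fold and 4 at least 8-fold. Rises were called in wild type for 7 of 23 tested genes at the lower ID and 10 of 16 at the higher ID. The library kit keeps the strand, but whether the counting used it is not given in the sources used here, nor is the strand of the genes. Reads running from a gene into its neighbour could be counted there, and their part was not tested.

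The neighbours with the largest called rises in wild type were BraA05g014950.3.5C and BraA03g046290.3.5C. BraA05g014950.3.5C, beside BraA05g014960.3.5C, had 4.01, 1.53 and 2.86 CPM in wild type and, in gi, 3.28, 1.30 and 2.41 CPM at 22 °C. At 37 °C it had 13175, 11202 and 12728 CPM in wild type against 12390, 10302 and 9555 CPM in gi. It missed the set of 30 because its level at 22 °C was above 1 CPM. Its log2 change was 12.11 in wild type (SE 0.63, edgeR adjusted p = 3.97e-07) and 12.17 in gi (SE 0.63, edgeR adjusted p = 5.06e-07). Its partner BraA05g014960.3.5C had 1906, 2362 and 1573 CPM in wild type and, in gi, 2734, 2301 and 1930 CPM at 37 °C.

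BraA03g046290.3.5C, beside BraA03g046300.3.5C, had 0, 0.0270 and 0 CPM in wild type against 0, 0.0171 and 0 CPM in gi at 22 °C. At 37 °C it had 3.16, 4.08 and 2.57 CPM in wild type and, in gi, 3.57, 8.75 and 18.02 CPM. It was called raised in both genotypes (edgeR adjusted p = 0.00011 in wild type and 4.30e-05 in gi). Among the heated gi libraries it was highest in replicate 3 and lowest in replicate 1, as was BraA03g046300.3.5C, whereas 26 of the 30 genes were highest in replicate 1 with TMM scaling. Its 2 counts in wild type and 1 in gi at 22 °C are too few for a fold change.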

How the data were processed

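Counts per gene were deposited by the authors as 1 table per library, whole reads with no normalization; the 5 closing lines of each table, which hold reads assigned to no gene, were left out (8.37% to 10.1% of aligned reads). FastQC, TopHat2, HTSeq and edgeR are named without versions in the submitters' processing notes; the genome build, annotation and strand setting are not given in the sources used here. Total gene counts of 36778289 to 57777477 limit the precision of low values, and counting intervals cover counting error only.

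EdgeR 4.0.16 under R 4.3.3 was used. Low genes were removed by filterByExpr (minimum count 10, minimum total 15; 28846 genes left, among them all 30 described), and libraries were scaled by TMM. All 12 libraries entered 1 quasi-likelihood fit with a mean for each of the 4 groups, and p-values were adjusted by Benjamini-Hochberg over all genes tested and called under 0.05. Standard errors are the log2 change over the root of its F value. The procedure was tested on simulated data. The 12 pairs of replicates differed by a chi-square of 14.9 to 353 per degree of freedom, so none was counted as a duplicate.

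The 30 genes, the comparison set and the tests were chosen with earlier results of these data known. Genes named were those with the most and the fewest reads, the most and least variable at 37 °C, those with the most counts at 22 °C, those at the limits, neighbouring members, and the neighbours with the largest called rises; others are marked in the text. Deviations of same-number libraries of the genotypes had correlations of 0.115 to 0.365. Unlike numbers gave -0.323 to 0.216, so whether the numbers pair gi with wild type is not settled. The main fit used no pairing. Between temperatures same-number libraries gave -0.286 to 0.210, and unlike numbers reached 0.410. Alternatives were total counts, median-of-ratios factors, no filter, DESeq2 1.42.0, a replicate block, fits of the contrasted groups alone, other limits and leaving out each library.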

Additional observations from a re-analysis of the deposited data

How the results depend on the processing

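The 30 genes met the limits also with median-of-ratios factors. Without the filter on low counts the set was the same, which is fixed, as any gene meeting the limits passes that filter. A limit of 0.5 CPM at 22 °C left 14 of the 30. Leaving out single libraries gave 30 to 36 genes. The 30 had to stay among them, because the limits were then asked of fewer libraries with the scaling unchanged. The genes called between gi and wild type at 37 °C numbered 0 under 17 of 19 alternatives each way. DESeq2 called 1 higher and 1 lower, leaving out single libraries gave 0 to 1 higher and 0 lower, and the heated groups alone gave 1 lower. At 22 °C DESeq2 called 2 lower, and leaving out single libraries gave 0 to 1 higher and 0 to 1 lower. The interaction called 0 genes under each of its 18 alternatives. The median log2 difference at 37 °C ran from -0.25 to 0.14 when single libraries were left out. Neighbours raised in wild type numbered 9 with total counts and 14 to 17 without single libraries. They numbered 16 with the replicate block set within each temperature and 17 with 1 block across temperatures. In gi they numbered 13 to 16 without single libraries, 13 with the block within each temperature and 15 with 1 block. Under either replicate block 0 of the 30 genes were called in each genotype comparison. The cause of the changes under other settings was not tested. Depth limits the comparisons at 22 °C, where the median value was 10 counts.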
